A study of Rattus norvegicus with 20 samples.

Results

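The genes described here are 8 secreted modulators of Wnt signalling, Sfrp1, Sfrp2, Sfrp4, Frzb, Dkk3, Wif1, Wnt5a and Wisp3, measured in the right ventricle of rats with chronic pulmonary embolism (PE). They were taken as every probe set (a group of probes for 1 transcript) whose single gene symbol in the platform annotation is one of these names, which gave 16 of the 31042 probe sets tested and 8 of 14217 genes. Wisp3 is listed there under its present symbol, Ccn6. Male Sprague Dawley rats of about 350 g had received either 2000000 polystyrene microspheres of 25 micron per 100 g of body weight, in 0.01% Tween-20, through the right jugular vein (PE), or 0.01% Tween-20 alone (vehicle). After 6 weeks all hearts were rinsed with saline by a brief perfusion, and the right ventricle was split into the apex and the outflow tract (base). The 4 groups were PE apex, vehicle apex, PE outflow and vehicle outflow, with 5 arrays each, 1 per tissue sample. The labels call them biological replicates, so the p-values measure the spread between these samples, taken for each probe set as 1 common spread over the 4 groups. Apex and outflow arrays of 1 replicate number were read as 1 rat, but the main fit treats all arrays as independent. One protocol text describes vehicle for all samples, and the groups here follow the titles and the treatment text. The microspheres are inert and lodge in the lung vessels, so the model loads the right ventricle without a blood clot. Values are signals on a linear scale, scaled by the authors to a common trimmed mean of 500.2 per array.

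Wnt proteins are secreted, lipid-bearing signals that bind Frizzled receptors with Lrp5 or Lrp6 and stabilise beta-catenin, or act through other routes that steer cell shape and movement. Secreted frizzled-related proteins (Sfrp1, Sfrp2, Sfrp4 and Frzb, also called Sfrp3) carry a Frizzled-like cysteine-rich domain and bind Wnt proteins outside the cell. Wif1 binds Wnt proteins with a domain of another kind, the Dickkopf protein Dkk3 is a divergent member of a family whose other members block Lrp receptors, Wnt5a is a ligand best known for beta-catenin-independent signalling, and Wisp3 is a matricellular CCN protein named after Wnt-inducible relatives. In the adult heart these secreted modulators are known mostly from fibroblasts and other connective tissue cells.

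The promoters of Sfrp2 and Frzb are shown because these genes had the largest rises in the outflow tract. RefSeq promoter windows of 300 bases (250 before the start and 50 after it, build GRCr8) were at hand for 5 of the 8 genes, Sfrp2, Frzb, Wif1, Wnt5a and Wisp3. Capitals mark matches, on either strand, to 4 motifs: the TATA box (TATAAA), TCF/LEF, the partners of beta-catenin (CTTTGAA or CTTTGAT or CTTTGTA or CTTTGTT), TEAD (GGAATG) and SMAD (CAGACA). The windows lie at chr2:171387286-171387585 on the plus strand for Sfrp2 and at chr3:85772047-85772346 on the minus strand for Frzb, written 5′ to 3′ along the gene.
Sfrp2: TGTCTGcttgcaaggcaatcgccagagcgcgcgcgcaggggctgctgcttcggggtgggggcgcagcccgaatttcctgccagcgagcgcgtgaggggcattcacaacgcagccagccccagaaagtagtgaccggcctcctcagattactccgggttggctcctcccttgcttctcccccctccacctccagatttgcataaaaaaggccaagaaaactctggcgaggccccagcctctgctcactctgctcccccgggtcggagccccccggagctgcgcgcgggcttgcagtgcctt
Frzb: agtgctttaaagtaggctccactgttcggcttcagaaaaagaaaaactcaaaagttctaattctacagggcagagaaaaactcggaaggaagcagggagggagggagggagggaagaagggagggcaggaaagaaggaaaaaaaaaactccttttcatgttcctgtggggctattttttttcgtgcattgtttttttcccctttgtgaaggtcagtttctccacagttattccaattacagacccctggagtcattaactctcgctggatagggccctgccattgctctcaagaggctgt
The Sfrp2 window held 1 SMAD match on the opposite strand, 250 bases before the start, and the other 4 windows held no match to any of the 4 motifs. Only a single window per gene was searched, and those of Wnt5a and Wif1 lie wholly inside the listed span of the gene. Other starts of these genes were not searched. Of 33465 rat promoters of this length, 21.1% held the SMAD motif, 17.1% TCF/LEF, 14.2% TEAD and 14.2% the TATA box. The Sfrp2 window had 21 CG dinucleotides and 65.0% G and C, and the Frzb window had 4 and 45.3%, against a median of 7 CG dinucleotides over all windows. Both genes rose in the outflow tract, as given next.

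In the outflow tract 6 of the 8 genes rose in PE rats (Sfrp1, Sfrp2, Sfrp4, Frzb, Dkk3 and Wif1), 0 fell, and Wnt5a and Wisp3 were not called. A gene was called at an adjusted p under 0.05 by limma over all 31042 probe sets, on its brightest probe set, and by this rule 26.3% of all genes rose in the outflow tract and 18.0% fell. The median log2 fold change of the 8 genes was 1.46, against 0.10 over all genes. The 8 genes were chosen with earlier results of these data known. The shares over all genes, here and below, therefore give scale and do not test the set. For each of these 6 genes the lowest PE array exceeded the highest vehicle array, which held for 18.8% of all genes. With each array centred on its median, the 8 genes gave the same count, while the probe sets called over the whole table were 4415 higher and 5966 lower in place of 6083 and 4637, which set the median over the table at -0.08 in place of 0.05. Of the 16 probe sets, 10 rose and 0 fell, against 19.6% and 14.9% of all probe sets.

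**Figure D1:**
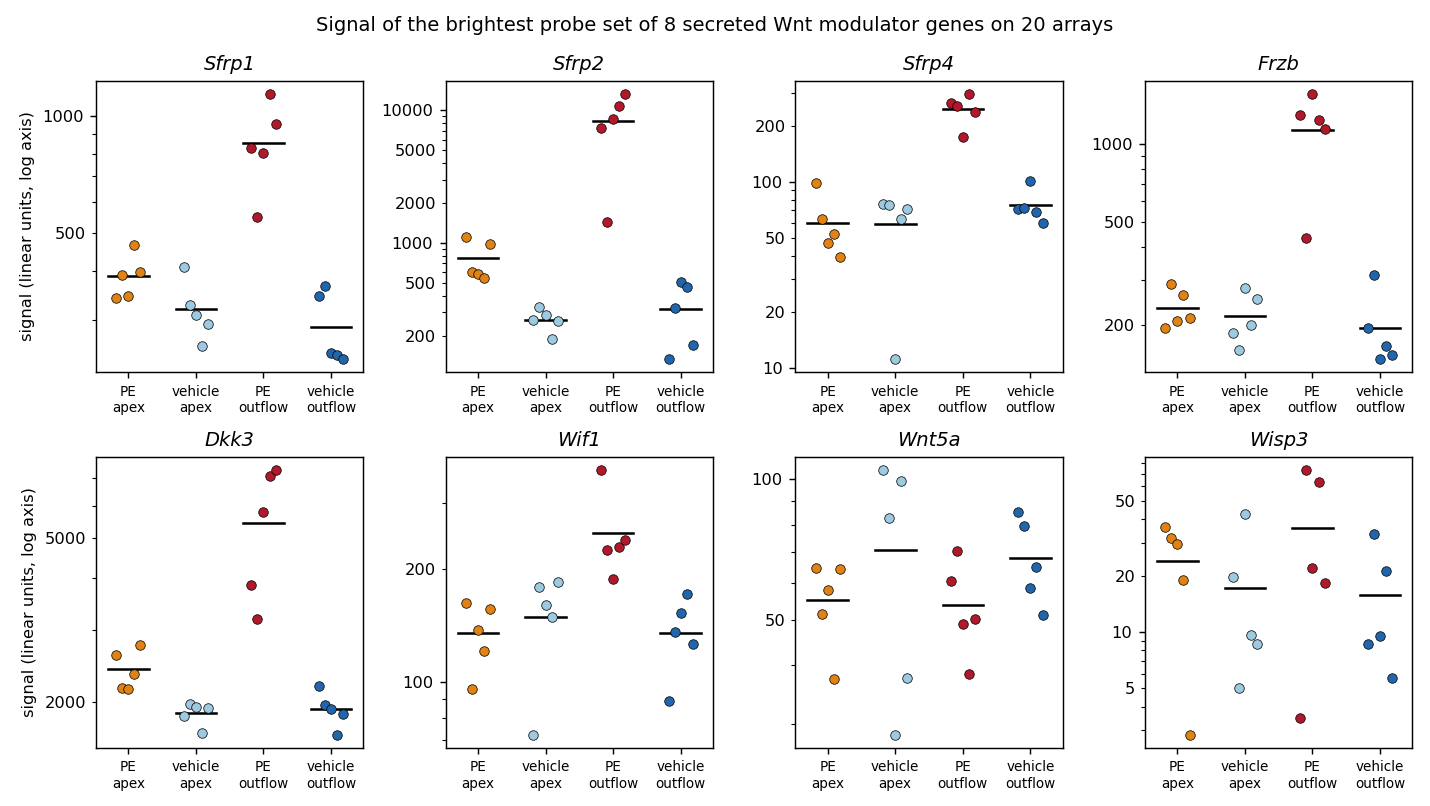
Signal of the brightest probe set of each gene on the 20 arrays (linear units on a log axis), with points for arrays and bars for the mean of 5. The 6 genes that rose have their 5 PE outflow points above the 5 vehicle outflow points, and for Sfrp2, Frzb, Sfrp1 and Dkk3 replicate 2 is the lowest PE outflow point.

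Of the secreted frizzled-related proteins, Sfrp2 changed most. Its signal was 7328, 1432, 8538, 10660 and 13180 on the PE outflow arrays of replicates 1 to 5, against 133.7, 322.9, 509.8, 465.1 and 168.7 on the vehicle outflow arrays. Replicate 2 stood far below the other PE arrays and still above every vehicle array. The mean was 8228 ± 4402 in PE outflow and 320.0 ± 169.3 in vehicle outflow (SD, n = 5 each), a 22.2-fold rise of the signal plus 16 (log2 4.47 ± 0.47, SE, limma adjusted p = 8.28e-07). A dimmer probe set of the gene gave 26.0-fold (log2 4.70 ± 0.61, adjusted p = 7.05e-06 by limma). It read 3343, 388.0, 3753, 5298 and 6580 on the PE outflow arrays, against 17.1 to 210.7 on the vehicle outflow arrays, so both probe sets of Sfrp2 ordered the 5 PE arrays alike.

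Frzb, a Wnt-binding protein known from developing cartilage, had 1287, 432.9, 1553, 1239 and 1141 on the PE outflow arrays, against 195.4, 311.9, 148.5, 165.8 and 154.0 on the vehicle outflow arrays. It rose 5.19-fold (log2 2.38 ± 0.27, limma adjusted p = 1.9e-06), and its dimmer probe set rose 4.65-fold (2.22 ± 0.33, adjusted p = 3.27e-05). Here too replicate 2 was the lowest PE array and replicate 3 the highest, on both probe sets. With the RNA-quality ratio described below as a covariate, the log2 fold change was 5.41 for Sfrp2 and 2.96 for Frzb. These 2 are given because their folds moved most of the 6 called genes, by 1.92 and 1.50 times. The ratio lay above the vehicle range only on PE outflow arrays and was by far the highest on replicate 2. Its effect therefore cannot be told apart from that of the group.

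Sfrp1 had 825.9, 550.3, 804.9, 1134 and 951.7 on the PE outflow arrays, against 345.0, 366.2, 247.9, 244.8 and 239.0 on the vehicle outflow arrays. It rose 2.83-fold (log2 1.50 ± 0.18, limma adjusted p = 2.89e-06). Its 2 dimmer probe sets rose less, 2.11-fold (1.08 ± 0.22, adjusted p = 0.000699) and 1.64-fold (0.71 ± 0.27, adjusted p = 0.048), with the groups apart on each. Sfrp4 had 263.4, 255.9, 174.9, 295.2 and 236.0 on the PE outflow arrays, against 71.6, 71.8, 101.2, 68.6 and 59.7 on the vehicle outflow arrays. It rose 2.88-fold (1.53 ± 0.28, adjusted p = 0.000245 by limma), and unlike the genes above its lowest PE array was replicate 3, not replicate 2. Its other probe set, among the dimmest of the table, had 0.82 ± 0.34 and was not called (adjusted p = 0.065), with 24.3 to 35.1 on the PE arrays against 1.59 to 38.9 on the vehicle arrays.

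Dkk3 had 3860, 3176, 5794, 7107 and 7334 on the PE outflow arrays, against 2186, 1972, 1929, 1668 and 1871 on the vehicle outflow arrays. It rose 2.68-fold (log2 1.42 ± 0.19, limma adjusted p = 7.49e-06). The other 3 probe sets annotated to Dkk3 did not rise and had log2 fold changes of -0.31 ± 0.15, -0.34 ± 0.42 and -0.42 ± 0.31 (limma adjusted p = 0.126, 0.588 and 0.338). The brightest of these read 116.1 to 167.4 on the PE outflow arrays, against 148.6 to 214.4 on the vehicle outflow arrays. Those with -0.34 and -0.42 lay among the 40% dimmest probe sets, at percentiles 32.7 and 3.3 of mean log2 signal. The latter read 0.955 to 30.8 in PE outflow and 0.89 to 31.5 in vehicle outflow, beside the 16 added before log2. How far low signal limits these values was not tested. The called rise of Dkk3 rests on 1 of its 4 probe sets, and which transcript ends the others detect is not given in the sources used here.

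Wif1, which sequesters Wnt proteins, had 367.9, 225.5, 188.3, 229.8 and 239.2 on the PE outflow arrays, against 88.9, 135.9, 153.0, 172.2 and 126.1 on the vehicle outflow arrays. It rose 1.75-fold (log2 0.81 ± 0.22, limma adjusted p = 0.00765), the smallest rise among the 6 called genes, and its lowest PE array exceeded the highest vehicle array only narrowly. The gene has 1 probe set.

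Wnt5a, the only Wnt ligand among the 8, had 60.7, 70.4, 49.1, 38.2 and 50.3 on the PE outflow arrays, against 85.2, 79.6, 58.6, 65.1 and 51.3 on the vehicle outflow arrays. The ranges overlapped, and its log2 fold change was -0.27 (95% interval -0.78 to 0.24, limma adjusted p = 0.442). Wisp3 had 3.49, 73.5, 22.1, 63.1 and 18.2 on the PE outflow arrays, against 8.62, 33.6, 9.50, 21.2 and 5.71 on the vehicle outflow arrays. Its log2 fold change was 0.57 (95% interval -0.26 to 1.39, adjusted p = 0.303 by limma), and the PE values spread over more than the whole vehicle range. Both genes lie among the 40% dimmest probe sets, and these intervals do not show that they were unchanged.

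**Figure D2:**
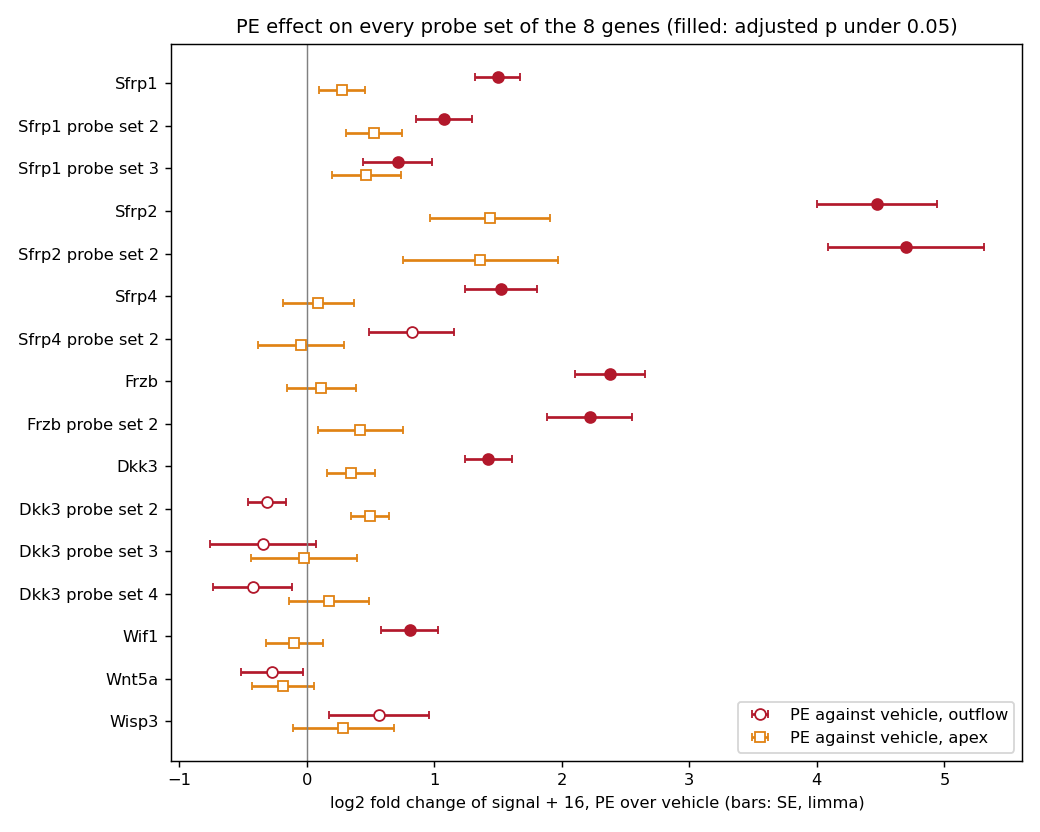
Log2 fold change (signal + 16, PE over vehicle) of all 16 probe sets in the outflow tract (circles) and the apex (squares), with the SE of the limma fit and filled symbols at an adjusted p under 0.05. In the outflow tract 10 probe sets are filled and all 10 are higher, while no apex symbol is filled.

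In the apex none of the 8 genes was called by limma, with 1 at an unadjusted p under 0.05, where 0.0211% of all genes rose and 8.29% had an unadjusted p under 0.05. The median log2 fold change of the 8 was 0.20, against 0.00 over all genes, and 6 of the 8 were positive. Sfrp2 had 1107, 599.9, 586.0, 541.4 and 978.9 on the PE apex arrays, against 260.3, 331.1, 283.7, 187.7 and 255.9 on the vehicle apex arrays. The lowest PE array exceeded the highest vehicle array, which held for 2.19% of all genes, and the log2 fold change was 1.44 ± 0.47 (95% interval 0.45 to 2.42), with a limma adjusted p = 0.428 and an unadjusted p = 0.00657. The dimmer probe set of Sfrp2 had 1.36 ± 0.61, and 3 of its 5 PE values exceeded the highest vehicle value. Of the 16 probe sets 0 were called in the apex, against 0.0129% of all probe sets that rose.

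Dkk3 had 2609, 2169, 2146, 2341 and 2760 on the PE apex arrays, against 1850, 1983, 1943, 1686 and 1933 on the vehicle apex arrays. The groups were apart, but the log2 fold change of 0.35 ± 0.19 was not called (limma adjusted p = 0.724). Each SE and p comes from a spread shared by all 4 groups, so it does not measure the apex spread alone. For Dkk3 the SD of log2 signal was 0.16 in PE apex, 0.09 in vehicle apex and 0.54 in PE outflow. For Sfrp2 it was 0.47, 0.28 and 1.27. None of the 8 genes was called in the apex in any of 32 settings, including a fit of only the compared groups. The second probe set of Dkk3 had 0.49 ± 0.15 in the apex (adjusted p = 0.367 by limma), also with the groups apart, against the -0.31 of the outflow tract. Sfrp1 had 0.28 ± 0.18, with 342.6 to 467.2 on the PE apex arrays against 257.4 to 411.2 on the vehicle apex arrays. Sfrp4 (0.09), Frzb (0.12), Wif1 (-0.10), Wnt5a (-0.18) and Wisp3 (0.29) had overlapping groups in the apex and adjusted p from 0.914 to 0.972 by limma. For Sfrp4, vehicle apex replicate 3 read 11.2 and the other 4 vehicle apex arrays 62.7 to 75.9.

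The difference between the PE effects of the regions was tested in the same fit, without a block for the rat. The effect was higher in the outflow tract than in the apex for 5 of the 8 genes and lower for 0, where 14.1% of all genes had a higher and 10.2% a lower effect. The difference on the log2 scale was 3.04 ± 0.67 for Sfrp2 (limma adjusted p = 0.00409), 2.26 ± 0.39 for Frzb (0.000869), 1.43 ± 0.40 for Sfrp4 (0.0164), 1.22 ± 0.25 for Sfrp1 (0.00277) and 1.08 ± 0.26 for Dkk3 (0.00802). Wif1 had 0.90 ± 0.32 (95% interval 0.24 to 1.57, adjusted p = 0.0537 by limma) and was called with the rat as a random block (0.90, adjusted p = 0.0402). Wnt5a (-0.08) and Wisp3 (0.28) were not called. Among the other probe sets the second of Sfrp2 (3.34) and of Frzb (1.80) were called higher, those of Sfrp1 (0.55 and 0.25) and Sfrp4 (0.87) were not called, and the second of Dkk3 was called lower (-0.80 ± 0.21, limma adjusted p = 0.0126). Over all probe sets, 9.84% had a higher and 8.09% a lower effect in the outflow tract, or 3056 and 2511, and with median centring 2046 and 3241.

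Between the regions of one treatment, 6 of the 8 genes were higher in the outflow tract than in the apex of PE rats, the same 6 that rose in the outflow tract, where 22.3% of all genes were higher and 15.5% lower. The groups were apart for all 6, as for 16.4% of all genes. With median centring 3707 probe sets were higher and 4875 lower, in place of 4971 (16%) and 3953 (12.7%). This comparison uses the PE outflow arrays again, so it is not separate evidence. The log2 differences were 3.15 for Sfrp2, 2.10 for Frzb, 1.81 for Sfrp4, 1.11 for Dkk3, 1.07 for Sfrp1 and 0.81 for Wif1 (limma adjusted p from 1.57e-05 to 0.00966). Among their other probe sets, the second of Sfrp1 (0.74), Sfrp2 (3.33) and Frzb (1.83) were also called higher, and the second of Dkk3 was called lower (-0.45, limma adjusted p = 0.0298). The third of Sfrp1 (0.24), the second of Sfrp4 (0.35) and the remaining probe sets of Dkk3 (-0.32 and -0.13) were not called. In vehicle rats 0 of the 8 genes differed between outflow tract and apex by limma, 0 at an unadjusted p under 0.05, and 0 genes of the whole table were called (0% higher, 3.14% at an unadjusted p under 0.05). Among the other probe sets none was called in vehicle rats. The second of Dkk3 had 0.36 ± 0.15 (limma unadjusted p = 0.0284), and the second of Sfrp4 had -0.52 ± 0.34 (limma unadjusted p = 0.136). On the brightest probe sets, the largest value among the 8 was 0.38 ± 0.28 for Sfrp4. The order of group means was thus PE outflow, PE apex, vehicle outflow and vehicle apex for Sfrp2 and Dkk3, with overlapping ranges of the vehicle groups. For Sfrp1, Frzb, Sfrp4 and Wif1, PE outflow was highest and the ranges of the other 3 groups overlapped.

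A measure of RNA quality differed among the PE outflow arrays, and cell type markers differed between PE and vehicle outflow. For the GAPDH control the 3'/5' signal ratio, which is high where RNA is degraded or its labelled copies are short, was 1.71, 6.12, 1.70, 2.20 and 2.34 on PE outflow replicates 1 to 5, 1.47 to 1.67 in PE apex, and 1.38 to 1.83 on the 10 vehicle arrays. PE outflow replicates 1 and 3 thus lay within the vehicle range, and replicates 2, 4 and 5 above it. Replicate 2 was the lowest PE outflow array for 4 of the 6 genes that rose (Sfrp1, Sfrp2, Frzb and Dkk3), and replicate 3 was lowest for Sfrp4 and Wif1. Without replicates 2, 4 and 5, which leaves only PE outflow replicates 1 and 3, the same 6 genes were called. Their values were 4.73 (Sfrp2), 2.81 (Frzb), 1.47 (Sfrp1), 1.37 (Sfrp4), 1.30 (Dkk3) and 0.92 (Wif1). The limma adjusted p was highest for Wif1 (0.0472) and Sfrp4 (0.019). In this setting the difference of PE effects for Sfrp4 and the regional difference of Wif1 in PE rats were not called.

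**Figure D3:**
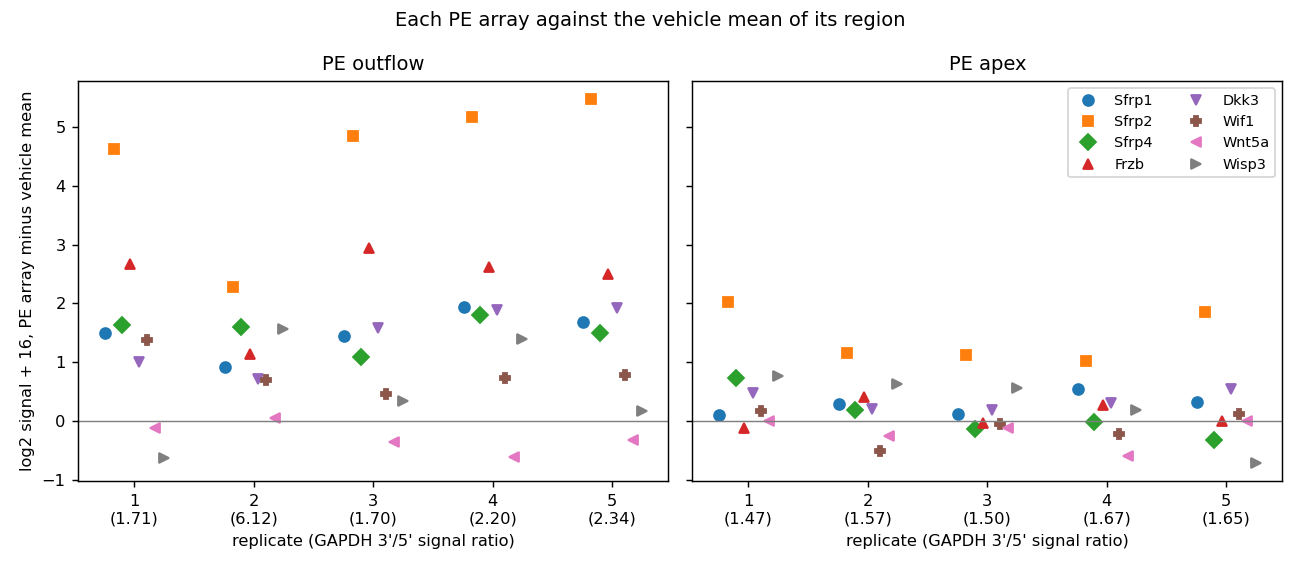
Each PE array minus the mean of the vehicle arrays of its region (log2 of signal + 16), by replicate, with the GAPDH ratio of the array in brackets and a symbol for each gene. Among the PE outflow arrays, Sfrp1, Sfrp2, Frzb and Dkk3 lie lowest on replicate 2, whose ratio is 6.12. Sfrp1, Sfrp2 and Dkk3 lie above 0 on all 10 PE arrays.

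Of 11 fibroblast markers 10 rose in the outflow tract (26.3% of all genes), with log2 fold changes of 0.05 to 1.67 and a median of 1.36, so Sfrp2 and Frzb lay beyond that range while Sfrp1, Sfrp4, Dkk3 and Wif1 lay within it. Their summed signal was 190600 to 221000 in PE outflow and 84050 to 116200 in vehicle outflow. Of 10 measured cardiomyocyte markers 8 fell (18.0% of all genes), with a median of -0.67 and sums of 194500 to 532600 in PE outflow and 400900 to 479900 in vehicle outflow, the highest of all on PE outflow replicate 2. All 7 macrophage markers rose (1.14 to 1.64), with sums of 7016 to 20820 in PE outflow and 5290 to 6138 in vehicle outflow. Of 6 measured markers of cartilage and valve tissue 5 rose (0.19 to 4.78), with sums of 670.2 to 5700 in PE outflow and 126.3 to 272.7 in vehicle outflow. PE outflow replicate 2 had the lowest PE outflow sum of both the macrophage and the cartilage and valve markers. Its fibroblast sum (199300) lay within the range of the other PE outflow arrays, and its Schwann cell (3702) and adipocyte (39970) sums were the highest of them. Of 6 smooth muscle markers 4 rose and 2 fell (-1.3 to 3.17), and of 6 adipocyte markers 3 rose and 2 fell (-1.01 to 3.45). All 4 measured Schwann cell markers rose (1.56 to 3.06). Of 6 endothelial markers 2 rose and 1 fell (-0.62 to 1.84), and of 5 mesothelial markers 3 rose and 1 fell (-0.54 to 2.77). Frzb (2.38) thus lay within the ranges of the smooth muscle, adipocyte, Schwann cell, mesothelial, and cartilage and valve lists. Sfrp2 (4.47) lay within that of cartilage and valve alone. No value of the table was 0. In the apex no list had a called member. The limma unadjusted p was under 0.05 for 6 of 11 fibroblast, 4 of 7 macrophage and 3 of 4 Schwann cell markers, all positive. It was so for 2 of 6 smooth muscle, 1 of 6 adipocyte and 0 markers of the other lists, against 8.29% of all genes. Macrophage sums were 7006 to 9224 in PE apex and 4685 to 6214 in vehicle apex. Schwann cell sums were 708.2 to 967.2 and 457.1 to 596. The part of these marker shifts in the values of the 8 genes was not tested. In whole tissue more cells of a type and more RNA per cell cannot be told apart.

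The rest of the Wnt pathway was taken from 5 further lists, whose counts are by limma and stand beside the 26.3% of all genes that rose and 18.0% that fell in the outflow tract. These lists too were chosen with earlier results of these data known. Of 12 measured Wnt ligands, 0 rose and 0 fell, with 0 at an unadjusted p under 0.05 and a median log2 fold change of -0.02. The smallest p were those of Wnt1 (-0.52), Wnt11 (-0.53), Wnt9a (0.22) and Wnt4 (0.42). Their mean log2 signals over the 20 arrays ran below 8.

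Of 15 other secreted modulators and genes of Wnt secretion, 7 rose, 0 fell and 8 were not called (median 0.38). Gpc3, a cell-surface proteoglycan that binds Wnt proteins, rose 6.50-fold (log2 2.70 ± 0.33, limma adjusted p = 4.19e-06), with a mean signal of 1001 ± 495.6 in PE outflow and 124.3 ± 28.6 in vehicle outflow (SD, n = 5 each). Cthrc1, a secreted collagen-like protein of injured tissue, rose by 2.00, the IGF-binding protein Igfbp4 by 1.57 and Apcdd1, a membrane inhibitor of Wnt signalling, by 1.53.

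Of 20 receptors and co-receptors, 4 rose, 2 fell and 14 were not called (median 0.17). Ptk7, a receptor-like protein of planar polarity, rose by 1.85, and the Frizzled receptors Fzd2 and Fzd1 rose by 1.25 and 0.81. Lgr6, a receptor for R-spondins, which enhance Wnt signals, fell by 1.55 on the log2 scale (limma adjusted p = 1.05e-05), with a mean signal of 445.4 ± 164.6 in PE outflow and 1277 ± 263.0 in vehicle outflow.

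Of 32 intracellular components, 13 rose, 2 fell and 17 were not called (median 0.19). The co-repressor gene Tle3 rose by 1.50, Prickle2 by 1.31 and Apc2, a relative of the tumour suppressor Apc, by 1.21, while the kinase gene Gsk3a fell by 0.84. Of 14 genes known as targets of beta-catenin in various tissues, 7 rose, 0 fell and 7 were not called (median 0.63). Ccn5, a CCN protein, rose by 4.94, and Twist1 (1.32), Cd44 (1.30) and Id2 (1.13) rose less. These genes also have other regulators. Axin2, Nkd2 and Lef1, known feedback or partner genes of beta-catenin, are named here after their values were seen. Nkd2 (1.52, limma adjusted p = 4.13e-05) and Lef1 (0.65, adjusted p = 0.0158 by limma) rose, and Axin2 had 0.31 and was not called (limma adjusted p = 0.356). In the apex none of these 5 lists had a called member, with 3 of 12 ligands, 1 of 15 modulators, 0 of 20 receptors, 3 of 32 intracellular components and 3 of 14 targets at an unadjusted p under 0.05, against 8.29% of all genes.

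**Figure D4:**
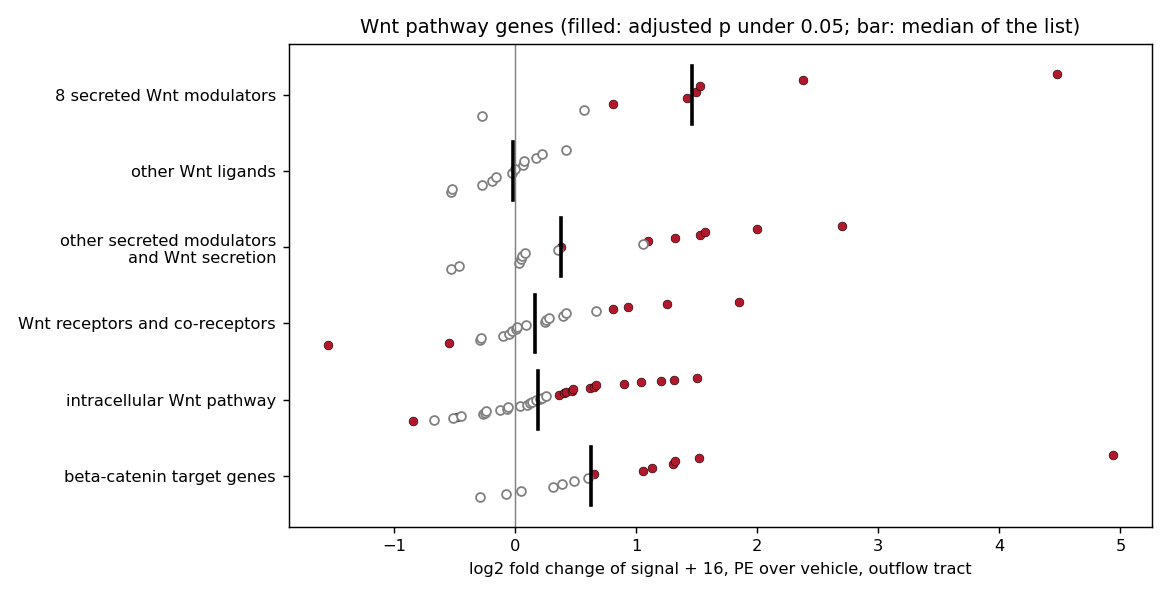
Log2 fold change (signal + 16, PE over vehicle) in the outflow tract of the 8 genes and of 5 other Wnt lists, 1 point per gene, filled at an adjusted p under 0.05, with a bar at the median of each list. The median of the 8 genes is 1.46, and no point of the other Wnt ligands is filled. The genes and lists were chosen with earlier results of these data known.

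The genes most like each member were found by the root mean square difference of log2 signal over the 20 arrays, after subtracting each gene's own mean, among 8129 genes with a mean log2 signal above 8. Sfrp2 was nearest to Col8a2, a short-chain collagen, at 0.48, Ccn5 at 0.57 and Ecrg4 at 0.66, where the median gene lay at 1.98. Frzb was nearest to Bace2 (0.28), Plvap (0.33) and Efemp2 (0.34), with a median gene at 1.05. Sfrp1 was nearest to Cnn3 (0.17), Armcx4 (0.18) and Spats2l (0.19), and Dkk3 to Pip4k2a (0.15), Praf2 (0.15) and Papss1 (0.17), with median genes at 0.65 and 0.66. Sfrp4 was nearest to Loxl3 (0.44), Sertad4 (0.44) and Bmp4 (0.44) with a median gene at 0.88, and Wif1 to Fkbp15 (0.25), Palm (0.27) and Aida (0.27) with a median gene at 0.52. The distance is small for genes that vary little, so it is not comparable between members. The median gene lay about as far off as the member's own spread over the arrays (1.985 for Sfrp2 and 1.051 for Frzb). A distance below that of the median gene is therefore no test of likeness.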

How the data were processed

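Signals of 31099 probe sets on 20 Affymetrix arrays were analysed. The deposited values are signal intensities on a linear scale; per the labels' protocols, cRNA came from 5 microgram of total RNA, and the authors' software is not given in the sources used here. The mean after leaving out 2% of values at either end was 500.2 on every array. The 57 control probe sets served only for RNA quality. Of the other 31042, 20826 had 1 gene symbol, 436 several and 9780 none, and 20758 matched a current gene by Entrez identifier.

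Log2(signal + 16) was fitted with 4 group means in limma 3.58.1 (R 4.3.3) and tested two-sided, with Benjamini-Hochberg adjustment. The main fit had no block for the rat. Figures used matplotlib 3.10.9. The fit was tested on simulated data. Each gene is represented by its brightest probe set. Precision is limited by the 5 arrays a group.

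The members and lists were chosen with earlier results of these data known. Named list genes are the 4 of smallest p per list in the outflow tract, and the 3 nearest genes of each called member.

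Replicate numbers paired apex with outflow arrays within a treatment (correlation of deviations 0.181 to 0.283 over 12310 probe sets in all 10 pairs), and were read as rats, but not PE with vehicle (-0.283 to 0.154).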

Additional observations from a re-analysis of the deposited data

Results flagged for a closer look

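Of 64 sets of 5 arrays (16 probe sets in 4 groups), 12 had 1 array far from the other 4 (gap over range of log2(signal + 16) above 0.71), where chance gives about 1 in 20. PE outflow replicate 2 was the distant array 5 times: low for Sfrp2 (0.735, signal 1432 against 7328 to 13180) and its second probe set (0.758), low for Frzb (0.756, 432.9 against 1141 to 1553) and its second probe set (0.711), and high for the fourth Dkk3 probe set (0.948, 30.8 against 0.955 to 1.88). Its GAPDH ratio of 6.12 and cardiomyocyte marker sum of 532600 were the highest of its group. Its macrophage (7016) and cartilage and valve (670.2) marker sums were the lowest. Its Schwann cell (3702) and adipocyte (39970) sums were also the highest of its group. Its fibroblast (199300), endothelial (19910), smooth muscle (32150) and mesothelial (991.9) sums lay within the range of the other PE outflow arrays. The part of these traits in the distant values was not tested.

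PE apex replicate 5 was low for the third Sfrp1 probe set (0.731) and the second Frzb probe set (0.9, 106.6 against 188.4 to 200.3). Among vehicle arrays, apex replicate 3 was low for Sfrp4 (0.872), apex replicate 1 was low for Wif1 (0.757, 72.4 against 148.6 to 184.9), apex replicate 2 (0.721) and outflow replicate 4 (0.965) were low for the third Dkk3 probe set, and outflow replicate 2 was high for the second Sfrp4 probe set (0.722).

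The PE effect differed between outflow tract and apex by the limma test of the difference (log2, outflow minus apex) for Sfrp1 (1.22), Sfrp2 (3.04, second probe set 3.34), Sfrp4 (1.43), Frzb (2.26, second probe set 1.80) and Dkk3 (1.08). The second Dkk3 probe set differed in the other direction (-0.80).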

How the results depend on the processing

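Over 32 alternative settings, 20 of them leaving out 1 array each, the 8 genes gave 1262 single-gene values on the brightest probe sets: 1251 kept their side of the threshold, 3 lost and 8 gained a call, and 0 reversed a call. All 254 values in the outflow tract of PE against vehicle kept their side. The count of 6 genes that rose there did not move, and the count for the difference between regions ranged from 4 to 6. The difference for Sfrp4 was not called with 1 added before log2 (1.51, adjusted p = 0.0787 by limma) or without PE outflow replicates 2, 4 and 5 (1.28, adjusted p = 0.117 by limma), and that for Wif1 was called in 8 of 31 settings, 3 of them leaving out 1 array (vehicle apex replicate 1, PE outflow replicate 3 or vehicle outflow replicate 4). The regional difference of Wif1 in PE rats was not called without those 3 PE outflow arrays. With the rat as a random block, or the replicate number as a fixed factor, 79 of 80 values kept their side. Only the call of Wif1 for the difference changed, with the random block (0.90 in both, random adjusted p = 0.0402 and fixed 0.0873 by limma). The fixed factor also joins PE with vehicle rats of the same number, which the correlations above did not pair. The cause of these changes was not tested. On other probe sets, 6 calls were lost, and the 3 of Dkk3 had the opposite sign: -0.31, -0.34 and -0.42 in the outflow tract, -0.80, -0.32 and -0.60 for the difference, and -0.45, -0.32 and -0.13 between the regions of PE rats. Of these 9 values only -0.80 and -0.45, of the second probe set, were called. Wnt5a, Wisp3 and the Dkk3 probe sets with -0.34 and -0.42 in the outflow tract were among the 40% dimmest probe sets. How far signal over background limits them was not tested. Wisp3 ranged from -0.15 to 0.87 in the outflow tract and was not called in any of 31 settings.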
